A study of Homo sapiens with 21 samples.

Results

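The prostaglandin genes described here are 10 genes of prostanoid metabolism: the phospholipase PLA2G4A, the cyclooxygenases PTGS1 and PTGS2, the prostaglandin E synthases PTGES, PTGES2 and PTGES3, the prostacyclin synthase PTGIS, the prostaglandin E2 receptors PTGER2 and PTGER4, and the catabolic dehydrogenase HPGD. They were chosen by symbol from a table of 16383 genes. A gene was tested when its normalised read count reached 10 in at least 3 libraries, which held for 11579 genes and for 9 of the 10 members, HPGD being the exception. All libraries were made from poly(A) RNA of IMR90, a diploid fibroblast line from human lung that is widely used to study senescence and whose genotype the labels give as WT. There were 7 groups of 3 libraries. Proliferating cells are labelled as untreated. Cells of the other 6 groups had been exposed to ionising radiation, which drives fibroblasts into senescence, a lasting arrest of division with a secretory phenotype. By the treatment protocol, siRNA was given at 5 nM on day 4 and again on day 7 after irradiation, and RNA was taken on day 10. The siRNA was non-targeting #3 (NT3), non-targeting #4 (NT4), or directed at CCND1, at CDK4, at CDK6, or at CDK4 and CDK6 together (dual knockdown). CCND1 encodes cyclin D1, the partner of the kinases CDK4 and CDK6. Irradiation, transfection and time in culture all separate the proliferating cells from the rest and cannot be told apart. All groups derive from 1 cell line, and nothing in the labels says that the libraries of a group came from separate cultures, so p-values measure the spread between these libraries only.

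Prostanoid synthesis starts when cytosolic phospholipase A2 frees arachidonic acid from membranes. The cyclooxygenases, PTGS1 (COX-1, mostly constitutive) and PTGS2 (COX-2, induced by cytokines, growth factors and stress), turn it into prostaglandin H2, which terminal synthases convert to prostaglandin E2, prostacyclin and other prostanoids that act on G-protein-coupled receptors. In lung fibroblasts prostaglandin E2 acts through the receptors EP2 (PTGER2) and EP4 (PTGER4), which raise cAMP and restrain proliferation and collagen synthesis, and COX-2 and prostaglandin E2 are known parts of the secretory phenotype of senescent cells.

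Promoters are shown for 3 members, PTGS2, PTGES and PLA2G4A. They were chosen because they were higher in irradiated controls and lower in the dual knockdown, with no overlap of libraries in either comparison. In the CCND1, CDK4 and CDK6 knockdowns the 3 genes did not all pass the test, as given below. Each run is the 250 bases before the RefSeq start (GRCh38.p14), read 5′ to 3′ on the gene's strand. Capitals mark letters that match a TATA box (TATAAA), a CRE half-site (TGACG), a C/EBP-like site (TTNNGCAA) or a kappaB-like site (GGG, any 5 bases, then CC), on either strand.
PTGS2, chr1:186680424-186680673, minus strand: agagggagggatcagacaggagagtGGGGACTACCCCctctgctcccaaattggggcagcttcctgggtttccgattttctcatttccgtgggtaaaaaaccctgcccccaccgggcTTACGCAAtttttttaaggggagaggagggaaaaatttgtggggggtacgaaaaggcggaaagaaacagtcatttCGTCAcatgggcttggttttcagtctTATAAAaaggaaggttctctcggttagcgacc
PTGES, chr9:129753043-129753292, minus strand: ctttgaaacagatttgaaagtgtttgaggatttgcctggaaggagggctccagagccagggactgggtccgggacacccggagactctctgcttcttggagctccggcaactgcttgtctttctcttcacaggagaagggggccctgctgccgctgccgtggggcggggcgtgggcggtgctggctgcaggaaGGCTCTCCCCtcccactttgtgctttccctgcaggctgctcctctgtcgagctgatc
PLA2G4A, chr1:186828699-186828948, plus strand: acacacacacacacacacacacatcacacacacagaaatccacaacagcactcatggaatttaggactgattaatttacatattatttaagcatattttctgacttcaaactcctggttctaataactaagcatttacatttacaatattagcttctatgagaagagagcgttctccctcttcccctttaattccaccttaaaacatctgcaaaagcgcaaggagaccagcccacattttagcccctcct
In the PTGS2 promoter the TATA box began 32 bases before the start, the CRE half-site 58, the C/EBP-like site 133, and 3 overlapping kappaB-like matches began 225, 224 and 223 bases before it. PTGES held 1 kappaB-like match, which began 57 bases before the start, and PLA2G4A held none of these letters. Of 35116 RefSeq promoters searched over the same length, 10.7% held the TATA box, 21.2% the CRE half-site, 9.05% the C/EBP-like letters and 54.4% the kappaB-like letters. An E-box (CACGTG, in 6.34% of promoters) and an interferon-response-like site (GAAA, any 2 bases, then GAAA, in 3.02%) were searched on both strands and were in none of the 3 runs. A GC box (GGGCGG, 42.6%, left in lower case) was found at 2 places in PTGES. RefSeq promoters were matched for 9 members. A match describes letters, not a bound site. The PTGS2 window lies in an intron of 1 longer GENCODE v44 transcript, and its far end overlaps the antisense transcript PACERR.

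Depth ranged from 12892442 to 21822152 reads in listed genes. One read was worth 0.709 to 1.21 normalised counts. The targeted transcripts were low in their own knockdowns. CCND1 averaged 4633 ± 480.4 (SD, n = 3) under its siRNA against 39197 ± 8712 (SD, n = 6) in NT3 and NT4 together. CDK4 averaged 108.1 ± 2.29 in the CDK4 knockdown and 117 ± 4.41 in the dual knockdown (both n = 3), against 1248 ± 82.9 (n = 6). CDK6 averaged 773 ± 54.7 in the CDK6 knockdown and 968 ± 34.4 in the dual knockdown, against 4706 ± 655. All 10 fibroblast markers were past the value filter, with COL1A1 at 186736 to 419002. Of 6 markers each, 2 epithelial, 3 endothelial and 3 leukocyte markers passed it. TEK read 1756 to 4484, CD68 650 to 1588, EPCAM 12.2 to 47.8 and CLDN4 8.39 to 75.1. CD14 reached 38.0, CSF1R 36.7, VWF 22.3 and KDR 18.4. Of those that did not pass, PECAM1 reached 20.6, CDH1 11.04, PTPRC 8.90 and ERG 5.19. CDH5, CD3E and KRT5 were at most 3.28, 2.43 and 1.21. NT3 replicate 3 stood apart, with an SD of log2 deviations from its group mean of 0.344 against 0.193 to 0.256 in the other 20 libraries. Replicate numbers follow column order and are names only.

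**Figure D1:**
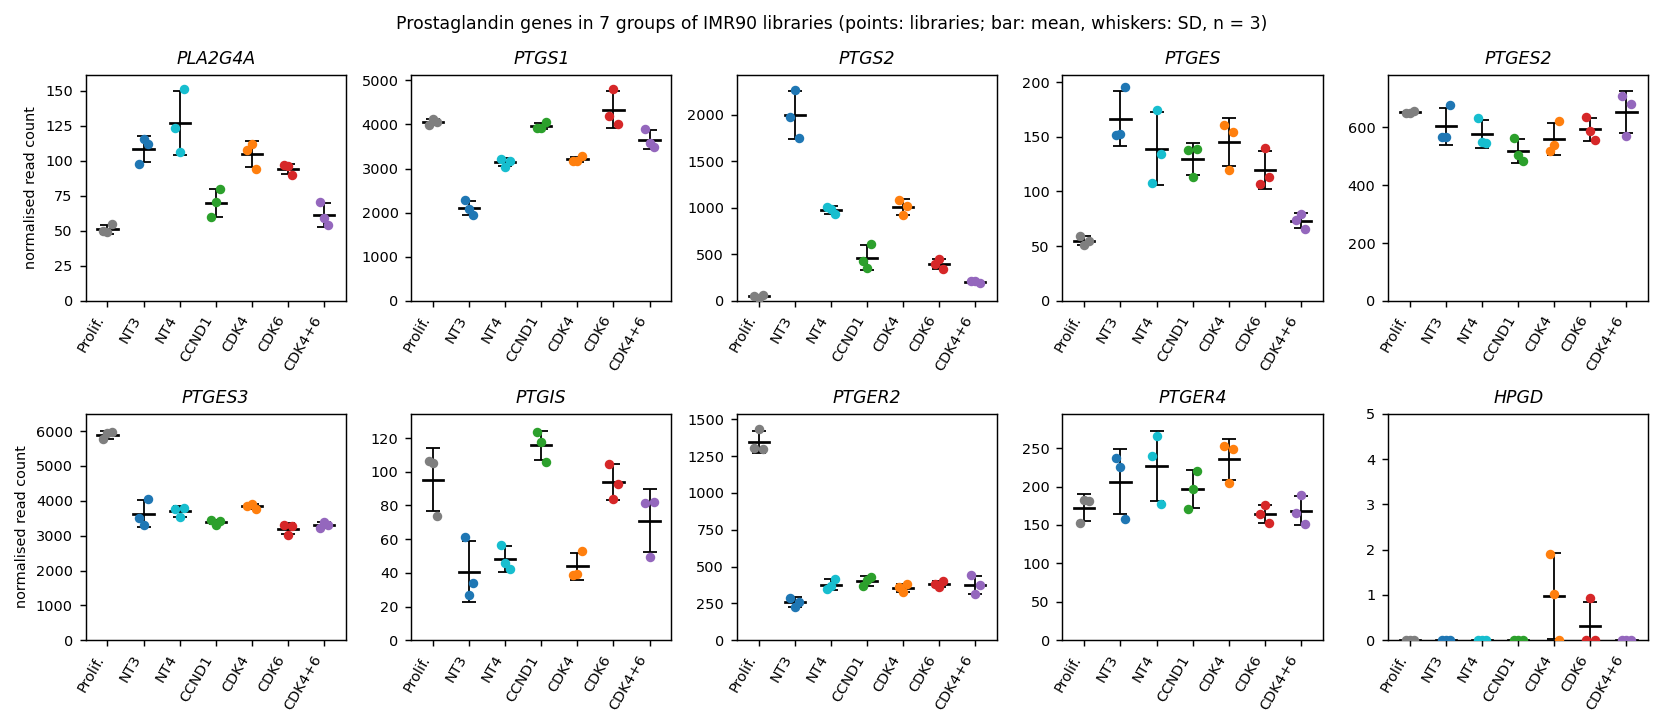
Normalised read counts (y axis, from 0, a separate scale for each gene) of the 10 prostaglandin genes in the 7 groups (x axis). Points are libraries, bars are means and whiskers SD (n = 3). PTGS2 runs from 36.2 in a proliferating library to 2262 in an NT3 library, PTGS1 is lowest in NT3, and HPGD stays under 2 normalised counts throughout.

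Irradiated control cells carried more transcript of the releasing phospholipase, the inducible cyclooxygenase and the inducible prostaglandin E synthase than proliferating cells, and less of the constitutive cyclooxygenase, the prostacyclin synthase and the EP2 receptor. Against proliferating cells, 8 of the 9 tested members changed, 4 upward and 4 downward, where 68.6% of all genes tested were called (32.6% higher, 36.1% lower). The libraries of 7 members did not overlap, as in 54.1% of all genes. The members' median log2 difference was -0.15, beside -0.03 for all genes. PTGS2 had the largest difference of the 9.

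PLA2G4A, which encodes cytosolic phospholipase A2 alpha, read 49.8, 49.0 and 54.9 normalised counts in proliferating libraries, 97.6, 115.6 and 111.65 in NT3, and 123.5, 106.1 and 151 in NT4. Every irradiated control library was above every proliferating one. The log2 difference was 1.17 (SE 0.13, limma adjusted p = 5.6e-08), a 2.3-fold ratio of means. In this RNA from whole cultures, more transcript per cell and more cells that express a gene cannot be told apart, here and below.

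PTGS2 read 48.9, 36.2 and 63.8 normalised counts in proliferating cells, 1977, 2262 and 1751 in NT3, and 1008, 990 and 929 in NT4. The lowest irradiated control lay far above the highest proliferating library, and the 2 control groups did not overlap. The log2 difference of the pooled controls from proliferating cells was 4.82 (SE 0.15, adjusted p = 5.39e-17), and the ratio of means was 29.9.

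PTGS1 ran the other way. It read 3994, 4115 and 4053 in proliferating cells, 2277, 2091 and 1954 in NT3 and 3219, 3045 and 3166 in NT4. All 3 groups were separate from each other, with NT4 between the other two. PTGS1 fell by 0.66 on the log2 scale (SE 0.06, adjusted p = 8.13e-10).

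Among the prostaglandin E synthases, PTGES, the microsomal enzyme that is induced along with PTGS2, read 59.4, 51.1 and 54.9 in proliferating cells, 152, 153 and 195 in NT3, and 107.95, 174 and 135 in NT4. It rose by 1.43 (SE 0.15, adjusted p = 1.4e-08), a 2.77-fold ratio, with no overlap between irradiated controls and proliferating cells. PTGES2, a second microsomal synthase, averaged 652 ± 4.73 in proliferating cells, 603 ± 65.4 in NT3 and 576 ± 49.5 in NT4 (SD, n = 3 each), and its difference of -0.15 (95% interval -0.32 to 0.02) did not pass the test (adjusted p = 0.117). PTGES3, the abundant HSP90 co-chaperone p23 that also has prostaglandin E synthase activity, averaged 5901 ± 114 in proliferating cells against 3661 ± 267 in the 6 control libraries, and fell by 0.69 (SE 0.05, adjusted p = 1.49e-10). Without NT3 replicate 3 the PTGES2 difference was -0.19 and passed the test (adjusted p = 0.0242).

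PTGIS, the prostacyclin synthase, read 106.6, 105.35 and 73.5 in proliferating cells, 61.2, 27.0 and 34.0 in NT3 and 56.8, 45.7 and 42.3 in NT4. It fell by 1.11 (SE 0.21, adjusted p = 9.55e-05), with no overlap between irradiated controls and proliferating cells.

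The 2 receptors differed. PTGER2 read 1301, 1434 and 1299 in proliferating cells, 290, 222 and 261 in NT3, and 346, 366 and 417 in NT4. No irradiated control came near a proliferating library, and PTGER2 fell by 2.112 (SE 0.10, adjusted p = 3.65e-14), to 23.6% of the proliferating mean. PTGER4 averaged 172 ± 17.5 in proliferating cells and 217 ± 41.1 in the 6 controls (range 158 to 266), so that libraries overlapped. Its difference of 0.31 (SE 0.14) was at the edge of the threshold (adjusted p = 0.049). The PTGER4 call was lost without any 1 of the 3 proliferating libraries, NT3 replicate 1 or 2, or NT4 replicate 1 or 2 (differences of 0.23 to 0.36, adjusted p = 0.0591 to 0.22), and against NT3 alone (0.24, adjusted p = 0.183). It was also lost without the value filter (adjusted p = 0.0674) and when only the compared groups were fitted (0.109).

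HPGD, the 15-hydroxyprostaglandin dehydrogenase that inactivates prostaglandin E2, was essentially unread. In the 345040407 reads of all libraries there were 4 HPGD reads, of which 2 and 1 were in CDK4 knockdown replicates 1 and 2 and 1 in CDK6 knockdown replicate 2. The other 18 libraries were at 0, which allows up to 3 reads, or 2.13 to 3.64 normalised counts, each. No HPGD comparison was made.

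**Figure D2:**
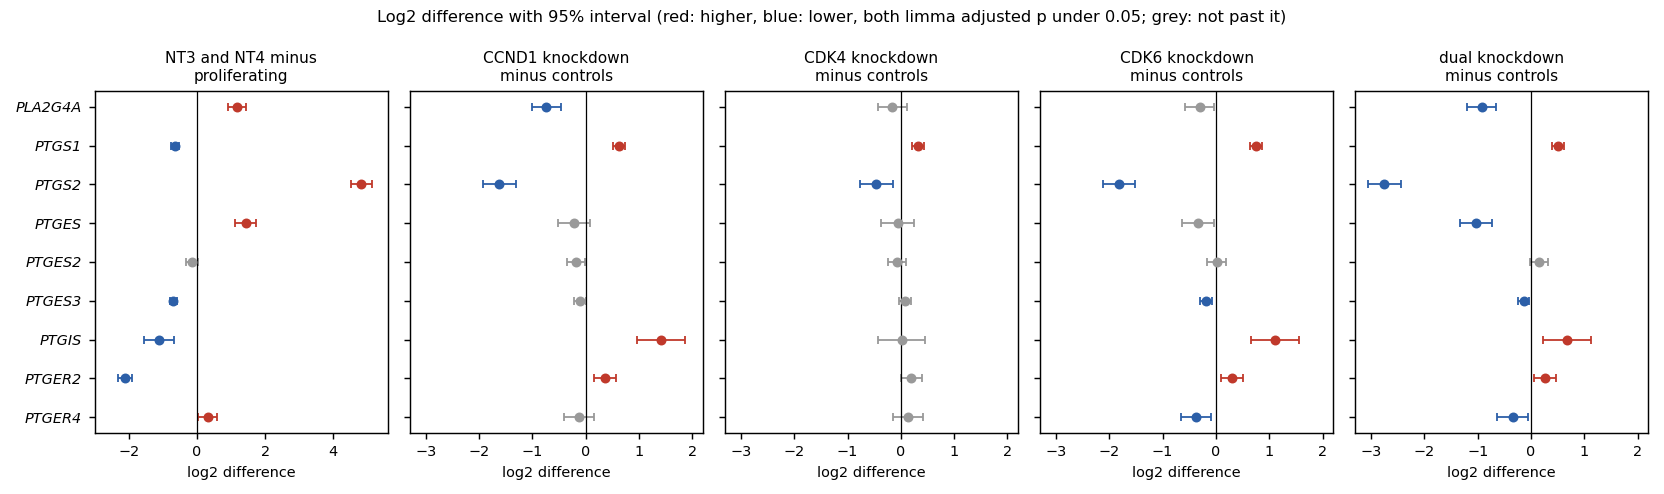
Log2 difference (x axis, points, with 95% intervals) of the 9 tested members (rows) in 5 comparisons (panels). The left panel has a wider x axis and sets the irradiated controls against proliferating cells, and the other 4 set each knockdown against the pooled controls. PTGS2 is at 4.82 on the left and at -1.62, -0.46, -1.82 and -2.75 in the knockdown panels.

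The 2 non-targeting controls differed in 3 of the 9 members, 2 higher and 1 lower in NT4, where 27.8% of all genes were called (14.7% higher, 13.1% lower). PTGS2 in NT4 stood at 48.9% of NT3 (difference -1.03, SE 0.17, adjusted p = 0.000129). PTGS1 was higher in NT4 (0.58, SE 0.06, adjusted p = 8.78e-07), and so was PTGER2 (0.55, SE 0.11, adjusted p = 0.00106). In all 3 genes the libraries of the 2 controls did not overlap, as in 34.9% of all genes. PTGIS did not pass the test (0.31, adjusted p = 0.364) but passed it without NT3 replicate 1 (0.645, adjusted p = 0.0404). Values against each control are therefore given beside the pooled ones below where they differ in call.

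The CCND1 knockdown had less PTGS2 and PLA2G4A and more PTGS1 and PTGIS than irradiated controls. Of the 9 members 5 changed, 3 upward and 2 downward, against 31.0% of all genes (16.7% higher, 14.4% lower), and 4 members had no overlap with the controls (21.2% of all genes). PTGS2 read 430, 353 and 609, all below the lowest of the 6 controls at 929, and the mean of 464 ± 132 was 31.2% of the control mean of 1486 ± 583. It fell by 1.62 (SE 0.15, adjusted p = 7.1e-08). Against NT3 alone the difference was -2.13 and against NT4 alone -1.11, with both past the threshold.

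PLA2G4A read 59.6, 70.4 and 79.5 in the CCND1 knockdown, below all control libraries. It fell by 0.74 (SE 0.13, adjusted p = 0.000185). PTGS1 read 3914, 3920 and 4051, above all controls, with the highest of them inside the proliferating range, and rose by 0.62 (SE 0.06, adjusted p = 5.6e-08). PTGIS read 123, 117 and 105.999 and rose by 1.41 (SE 0.21, adjusted p = 3.98e-05), to 260% of the control mean.

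PTGES averaged 130 ± 14.6 in the CCND1 knockdown, 85.1% of the control mean, with a difference of -0.21 (95% interval -0.52 to 0.09, adjusted p = 0.281). PTGES2 (-0.19, adjusted p = 0.0951), PTGES3 (-0.11, adjusted p = 0.131) and PTGER4 (-0.13, adjusted p = 0.52) did not pass the test either, though PTGES3 passed it without NT3 replicate 2 (-0.14, adjusted p = 0.0322). PTGES3 also passed it with quantile normalization (-0.16, adjusted p = 0.0366). PTGER2 passed it against the pooled controls (0.37, adjusted p = 0.00726), but its libraries overlapped theirs and the difference from NT4 alone was 0.09 (adjusted p = 0.631).

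In the CDK4 knockdown PTGS2 was lower and PTGS1 higher than in the pooled controls, and both lay next to the NT4 libraries. Of the 9 members 2 passed the test, 1 in each direction, beside 16.0% of all genes (8.46% higher, 7.55% lower), and no member was without overlap, beside 11.2%. PTGS2 read 1088, 923 and 1022, around the NT4 libraries at 929 to 1008 and below all of NT3. Its difference of -0.46 (SE 0.15) had an adjusted p of 0.0363, but it was 0.05 against NT4 alone (95% interval -0.31 to 0.40, adjusted p = 0.907) and -0.98 against NT3 alone (adjusted p = 0.000243). The pooled call was also lost without NT3 replicate 2, NT4 replicate 1 or 2, or any 1 of the 3 CDK4 knockdown libraries (differences of -0.52 to -0.40, adjusted p = 0.0554 to 0.176). Without the value filter it was lost as well (adjusted p = 0.0549).

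PTGS1 read 3174, 3171 and 3277 in the CDK4 knockdown and rose by 0.32 against the pooled controls (SE 0.06, adjusted p = 0.000401). The NT4 libraries at 3045 to 3219 overlapped these values, and against NT4 alone the PTGS1 difference was 0.03 (95% interval -0.10 to 0.16, adjusted p = 0.838). The other 7 members had adjusted p from 0.192 (PTGER2) to 0.972 (PTGIS). Of these, PTGER2 passed the test against NT3 alone (0.47, adjusted p = 0.00391) and was at -0.08 against NT4 alone (adjusted p = 0.745), and PTGES3 passed it without NT3 replicate 3 (0.115, adjusted p = 0.0311). PTGES averaged 145 ± 22.1 with a difference of -0.06 (95% interval -0.36 to 0.24), PLA2G4A 104.6 ± 9.18 with -0.16 (-0.43 to 0.11), and PTGIS 43.8 ± 7.97 with 0.02 (-0.43 to 0.46).

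The CDK6 knockdown had less PTGS2 and more PTGS1 and PTGIS than the controls. Of the 9 members 6 changed, 3 in each direction, against 41.9% of all genes (21.1% higher, 20.8% lower), and 5 had no overlap with the controls (28.6% of all genes). PTGS2 read 398, 450 and 341, below all 6 controls. It fell by 1.82 (SE 0.15, adjusted p = 4.14e-09) to 26.7% of the control mean, and by 1.31 against NT4 alone (adjusted p = 5.35e-06).

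PTGS1 read 4188, 4802 and 4013 in the CDK6 knockdown, the highest group mean of all 7 (4335 ± 414), though its range overlapped those of the proliferating and CCND1 knockdown libraries. It rose by 0.75 (SE 0.06, adjusted p = 1.15e-09). PTGIS read 104.8, 83.9 and 92.9 and rose by 1.11 (SE 0.21, adjusted p = 0.000281). For both genes the CDK6 knockdown libraries were above every control.

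PTGES averaged 120 ± 17.5, 78.5% of the control mean. The difference of -0.33 (95% interval -0.63 to -0.03) missed the threshold (adjusted p = 0.0719). It passed without NT4 replicate 1 (-0.42, adjusted p = 0.0228) or CDK6 knockdown replicate 2 (-0.45, adjusted p = 0.0397). Against NT3 alone PTGES passed as well (-0.47, adjusted p = 0.0263). PLA2G4A read 96.7, 95.97 and 90.1, just below the lowest control at 97.6, with a difference of -0.30 that missed it as well (adjusted p = 0.0658) and passed without NT4 replicate 2 (-0.36, adjusted p = 0.0319) or against NT4 alone (-0.41, adjusted p = 0.0421). PTGES3 was slightly lower (-0.19, SE 0.05, adjusted p = 0.00601), a call lost without CDK6 knockdown replicate 2 (-0.15, adjusted p = 0.055). The PTGES3 call was also lost when only the compared groups were fitted (adjusted p = 0.0659).

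PTGER2 passed the test upward (0.30, adjusted p = 0.0166) and PTGER4 downward (-0.38, adjusted p = 0.0326), and the libraries of both overlapped the controls. PTGER2 differed from NT4 alone by 0.03 (adjusted p = 0.877), and its pooled call was lost without CDK6 knockdown replicate 3 (0.27, adjusted p = 0.0819). The PTGER4 call was lost without NT3 replicate 1 or 2, NT4 replicate 1 or 2, or CDK6 knockdown replicate 1 or 3 (adjusted p = 0.0559 to 0.134), and against NT3 alone (-0.31, adjusted p = 0.121). It was also lost with quantile normalization (adjusted p = 0.0507) and when only the compared groups were fitted (0.0882).

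The dual knockdown had the lowest mean PTGS2, PTGES and PLA2G4A of the 6 irradiated groups, though its PLA2G4A overlapped that of the CCND1 knockdown. Of the 9 members 8 changed, 3 upward and 5 downward, against 44.0% of all genes (22.5% higher, 21.5% lower), while 4 had no overlap with the controls (28.3% of all genes). PTGS2 read 211, 211 and 196, under all other irradiated libraries, and fell by 2.75 (SE 0.15, adjusted p = 4.36e-12) to 13.9% of the control mean. The group still averaged 4.15 times the proliferating mean without overlap. PTGES read 73.9, 79.7 and 66.1 and fell by 1.03 (SE 0.15, adjusted p = 6.14e-06), and PTGES too stayed above the highest proliferating library at 59.4.

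PLA2G4A read 70.6, 59.0 and 54.1 in the dual knockdown, below all controls and with its lowest library inside the proliferating range. It fell by 0.93 (SE 0.13, adjusted p = 5.69e-06). PTGS1 read 3903, 3575 and 3485, above all controls, and rose by 0.51 (SE 0.06, adjusted p = 2.28e-07). PTGIS read 81.7, 49.1 and 82.1, overlapping the controls, and rose by 0.68 (SE 0.21, adjusted p = 0.0141), a call lost without dual knockdown replicate 1 or 3 (0.56 and 0.55) and against NT4 alone (0.52, adjusted p = 0.106).

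Calls of the other members in the dual knockdown were near the threshold. PTGES3 (-0.14, adjusted p = 0.0349), PTGER2 (0.27, adjusted p = 0.0322) and PTGER4 (-0.34, adjusted p = 0.0474) passed it with overlapping libraries. PTGES3 lost the call without NT4 replicate 1 or 3 or dual knockdown replicate 1 or 3 (adjusted p = 0.0622 to 0.131), and against NT3 alone (-0.13, adjusted p = 0.101). PTGER2 lost it without NT3 replicate 2, NT4 replicate 1 or 2, or dual knockdown replicate 1 or 3 (0.15 to 0.26, adjusted p = 0.0542 to 0.28), and its difference from NT4 alone was -0.01. PTGER4 lost it without NT3 replicate 1 or 2, NT4 replicate 1 or 2, or dual knockdown replicate 1 or 3 (adjusted p = 0.0824 to 0.199), and against NT3 alone (-0.27, adjusted p = 0.168). With median centring PTGES3 (adjusted p = 0.0718) and PTGER4 (0.0563) lost it. PTGER4 also lost it with quantile normalization (0.142) and without the value filter (0.0677). When only the compared groups were fitted, these 3 members and PTGIS lost it (adjusted p = 0.0684 to 0.153). PTGES2 missed the threshold (0.14, adjusted p = 0.173) but passed it without NT3 replicate 3 (0.19, adjusted p = 0.0404) or dual knockdown replicate 2 (0.24, adjusted p = 0.0415).

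**Figure D3:**
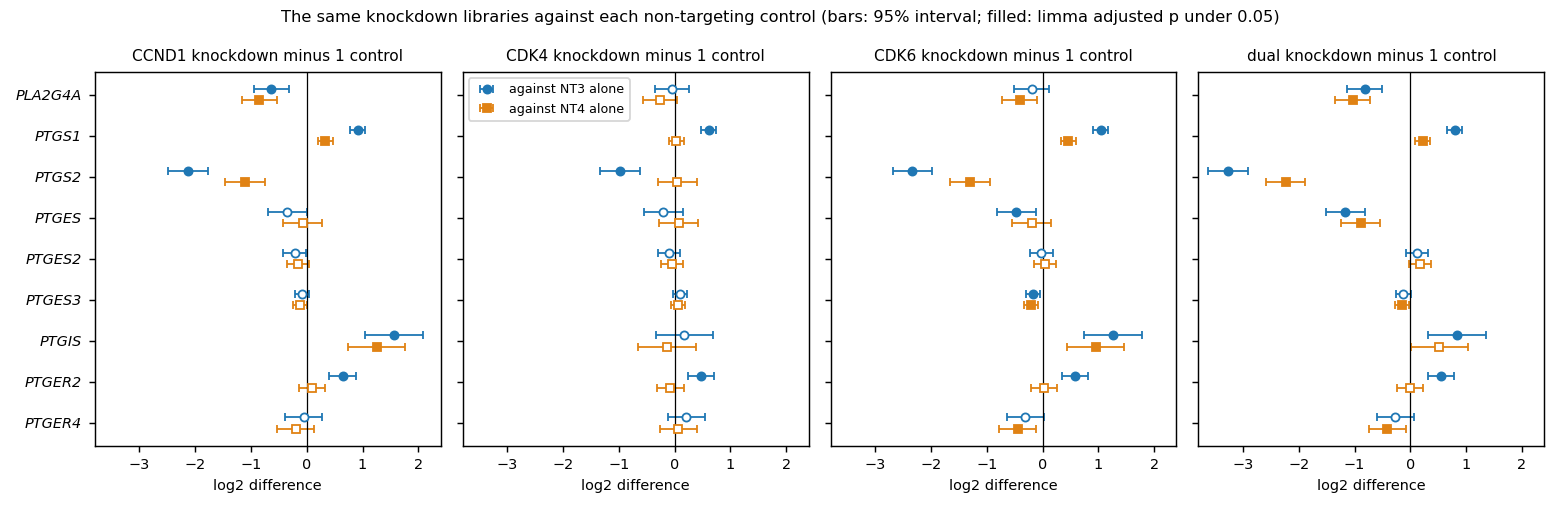
Log2 difference (x axis, with 95% intervals) of each tested member (rows) in the 4 knockdowns (panels), against NT3 alone (circles) and NT4 alone (squares), filled where the limma adjusted p is under 0.05. PTGS2 stays below 0 against both controls in the CCND1, CDK6 and dual knockdowns, and in the CDK4 knockdown it is at -0.98 against NT3 and 0.05 against NT4.

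Knockdowns of the 2 kinases were also compared with each other, which uses no control library. Of the 9 members 5 differed between CDK6 and CDK4 knockdown, 2 higher and 3 lower, beside 34.8% of all genes (17.5% higher, 17.3% lower), and all 5 were without overlap (51.7% of all genes). PTGS2 was lower in the CDK6 knockdown, at 39.2% of the CDK4 knockdown mean (-1.35, SE 0.17, adjusted p = 2.22e-06). PTGS1 (0.43, adjusted p = 1.92e-05) and PTGIS (1.09, SE 0.25, adjusted p = 0.0015) were higher. PTGES3 (-0.26, adjusted p = 0.00178) and PTGER4 (-0.51, adjusted p = 0.0152) were lower, and PTGER4 lost its call without CDK4 knockdown replicate 1 or 3 or CDK6 knockdown replicate 3 (adjusted p = 0.0565 to 0.0636). For PTGES the difference was -0.27 (95% interval -0.62 to 0.08) and for PLA2G4A -0.15 (-0.46 to 0.17), neither past the threshold.

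In the dual knockdown 4 members were lower than in the CDK6 knockdown and none was higher by limma, beside 13.0% of all genes called (6.05% higher, 6.94% lower). PTGS2 in the dual knockdown was at 51.9% of the CDK6 knockdown (-0.93, SE 0.17, adjusted p = 0.000702). PTGES (-0.70, SE 0.17, adjusted p = 0.00716) and PLA2G4A (-0.62, SE 0.15, adjusted p = 0.0073) were lower too. PTGS1 was lower by a smaller step (-0.24, adjusted p = 0.014), a call lost without CDK6 knockdown replicate 2 or dual knockdown replicate 2 or 3 (-0.17 to -0.23, adjusted p = 0.0508 to 0.106). These 4 members and PTGIS (-0.43, adjusted p = 0.279) had no overlap between the 2 groups, against 36.2% of all genes. The labels do not say whether the total siRNA dose was the same in both groups.

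From lowest to highest mean, PTGS2 ran from proliferating cells through the dual, CDK6 and CCND1 knockdowns to NT4, the CDK4 knockdown and NT3. Libraries of neighbours in that order overlapped for the CDK6 and CCND1 knockdowns and for NT4 and the CDK4 knockdown, and not elsewhere. PTGS1 ran from NT3 through NT4, the CDK4, dual and CCND1 knockdowns and proliferating cells to the CDK6 knockdown, and NT4 overlapped the CDK4 knockdown, as the CCND1 knockdown did the proliferating cells and these the CDK6 knockdown. In the PLA2G4A order (proliferating, dual, CCND1, CDK6, CDK4, NT3, NT4) the only gap between neighbours was that between the CCND1 and CDK6 knockdowns, at 79.5 and 90.1.

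Contractile genes that also mark smooth muscle were read as a sum. Like the means of PTGS1 and PTGIS, it was higher in proliferating cells and the CCND1, CDK6 and dual knockdowns than in both controls. It was not higher in the CDK4 knockdown. There PTGIS did not pass the test (0.02, limma adjusted p = 0.972). PTGS1 passed it upward against the pooled controls but not against NT4 alone (0.03, adjusted p = 0.838). NT3 and NT4 overlapped in the sum but not in PTGS1. Of the 4 markers of that list MYH11 was near 0, and ACTG2, CNN1 and DES passed the value filter, DES at only 39.7 to 77.7. Their summed level was 10332 to 10631 in proliferating cells, 4226 to 5905 in NT3, 5391 to 6268 in NT4, 10070 to 10725 in the CCND1 knockdown, 4584 to 4984 in the CDK4 knockdown, 10405 to 10982 in the CDK6 knockdown and 7526 to 8481 in the dual knockdown. Their part in the PTGS1 and PTGIS results was not tested.

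**Figure D4:**
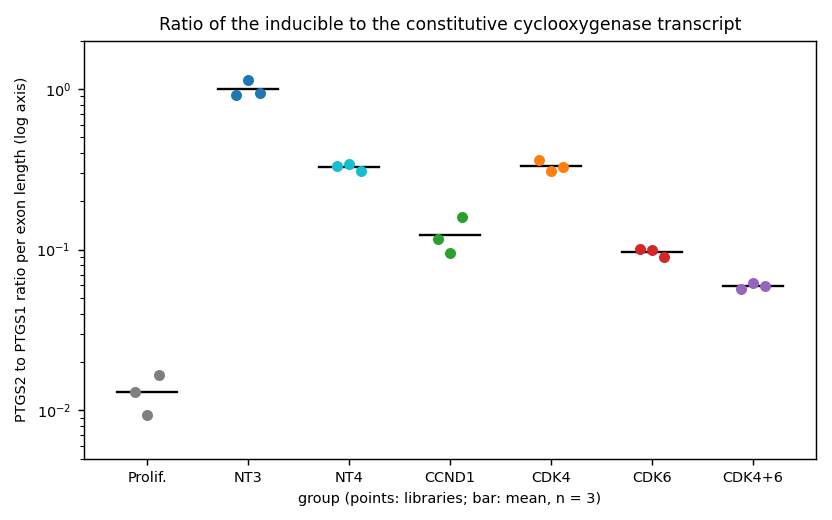
Ratio of PTGS2 to PTGS1 after dividing each normalised count by the gene's exon length (y axis, log scale) in the 7 groups (x axis); points are libraries and bars means (n = 3). NT3 is near 1, NT4 and the CDK4 knockdown near 0.33, and proliferating cells near 0.013.

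Since the cyclooxygenases moved in opposite directions, their ratio was taken per exon length (5484 exonic bases for PTGS2 and 5784 for PTGS1 in GENCODE v44), which puts both on 1 scale. The per-length ratio of PTGS2 to PTGS1 was 0.0129 ± 0.00366 (SD, n = 3) in proliferating cells, 0.916, 1.14 and 0.945 in the NT3 libraries, 0.328 ± 0.0168 in NT4 and 0.332 ± 0.0276 in the CDK4 knockdown. It was 0.123 ± 0.0325 in the CCND1 knockdown, 0.0962 ± 0.00575 in the CDK6 knockdown and 0.0595 ± 0.0026 in the dual knockdown. Per length PTGS1 was the more abundant in all libraries of the other 6 groups.

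Across the 21 libraries, log2 levels of PTGS2 and PTGES had a Pearson r of 0.92 (0.82 over the 18 irradiated libraries), and PTGS2 and PLA2G4A 0.86 (0.76). PTGS2 and PTGS1 had -0.70 (-0.79), and PTGS1 and PTGIS 0.78 (0.77). The libraries share 7 group means, so these values describe the groups more than single libraries. Among 9109 tested genes with a mean of at least 100, the 3 whose pattern was most like that of PTGS2 were RSAD2 (r = 0.98), IFI44 (0.98) and MX1 (0.98), all known as interferon-stimulated genes, and over the 18 irradiated libraries the values were 0.96, 0.96 and 0.95. For PTGES they were TCIM (0.95), IFIT3 (0.95) and MX2 (0.94). For PTGIS they were BGN (0.88), CRYZ (0.87) and SNX7 (0.87).

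Other genes of the pathway were read from 4 lists, whose counts are to be read beside the shares of all tested genes that were called: 68.6% in irradiated controls against proliferating cells (32.6% higher, 36.1% lower), and 31.0%, 16.0%, 41.9% and 44.0% in the CCND1, CDK4, CDK6 and dual knockdowns. In irradiated controls against proliferating cells, 14 of 15 tested genes of phospholipases and arachidonate handling changed, 8 upward and 6 downward (list median 0.16, beside -0.03 for all genes). PLA2G4C, a membrane-bound relative of PLA2G4A, rose by 1.87 (SE 0.08, limma adjusted p = 6.87e-15), from 68.6 to 254 normalised counts, and the lysosomal phospholipase PLA2G15 rose by 1.10 (adjusted p = 4.51e-13). FADS2, the desaturase that starts the route from linoleic to arachidonic acid, fell by 1.40 (adjusted p = 4.23e-14). In the knockdowns the list gave 6 of 15 called for CCND1 (5 higher), 4 for CDK4 (3 higher), 6 for CDK6 (5 higher) and 8 for the dual knockdown (6 higher), beside 31.0%, 16.0%, 41.9% and 44.0% of all genes. The secreted phospholipase PLA2G12A fell by 1.07 in the CDK6 knockdown (adjusted p = 2.22e-08), from 221 to 104.7 normalised counts, and by 0.43 in the dual knockdown (adjusted p = 0.00119). ANXA1, annexin A1, rose by 0.55 in the dual knockdown (adjusted p = 2.24e-07), by 0.80 against NT3 alone and by 0.29 against NT4 alone (adjusted p = 0.00231), and was itself higher in NT4 than in NT3 by 0.51 (adjusted p = 1.24e-05).

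Of 6 other prostanoid synthases tested, 3 rose in irradiated controls, 1 fell and 2 missed the threshold (median 0.23), beside 68.6% of all genes called. AKR1B1, an aldo-keto reductase with prostaglandin F synthase activity, read 2911, 3057 and 2822 in proliferating cells and 5246 to 8889 in the 6 controls, and rose by 1.21 (SE 0.10, adjusted p = 5.37e-10). It read 3113, 4164 and 2925 in the CDK6 knockdown and 3590, 3565 and 3646 in the dual knockdown, all below every control, with falls of 1.01 (adjusted p = 7.05e-08) and 0.91 (adjusted p = 2.15e-07). In the CDK4 knockdown the AKR1B1 difference was 0.21 (adjusted p = 0.179) and in the CCND1 knockdown -0.25 (adjusted p = 0.0626). AKR1B1 was lower in NT4 than in NT3 by 0.44 (adjusted p = 0.00754), and the CDK4 knockdown passed the test against NT4 alone (0.42, adjusted p = 0.0186), the CCND1 knockdown against NT3 alone (-0.47, adjusted p = 0.0031). PTGDS, prostaglandin D synthase, rose from 1.82 to 19.8 normalised counts (2.91, adjusted p = 1.29e-08), a difference that rests on few reads. It fell in the CCND1 (-1.25, adjusted p = 0.00274) and CDK4 (-0.98, adjusted p = 0.0258) knockdowns, to means of 7.92 and 9.47. The CDK4 call was lost against NT4 alone (adjusted p = 0.0765). Called synthases numbered 1 of 6 for CCND1, 1 for CDK4, 1 for CDK6 and 2 for the dual knockdown, all lower. These counts stand beside 31.0%, 16.0%, 41.9% and 44.0% of all genes.

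Among 6 other prostanoid receptors tested, 3 rose and 2 fell in irradiated controls (median 0.40), beside 68.6% of all genes called. PTGFR, the prostaglandin F receptor, read 121, 121 and 108.07 in proliferating cells and 222 to 400.1 in controls, and rose by 1.33 (SE 0.08, adjusted p = 2.93e-12). PTGIR, the prostacyclin receptor, rose by 1.11 (adjusted p = 2.84e-07). PPARG, a nuclear receptor that binds prostaglandin metabolites, fell by 1.17 (adjusted p = 2.59e-09). PTGFR was lower in the CDK6 knockdown (189, 184 and 183, a difference of -0.66, adjusted p = 1.1e-06) and in the dual knockdown (147, 143 and 147, -1.01, adjusted p = 1.61e-09). It was higher in NT4 than in NT3 by 0.60 (adjusted p = 5.53e-05), so that the CDK6 knockdown difference was -0.36 against NT3 alone (adjusted p = 0.00306) and -0.96 against NT4 alone. Against single controls PTGFR passed the test in the CDK4 knockdown in both directions, at 0.26 from NT3 (adjusted p = 0.0462) and -0.34 from NT4 (adjusted p = 0.0182). In the CCND1 knockdown PTGFR passed it against NT3 alone (0.45, limma adjusted p = 0.000755) but not against NT4 alone (-0.15, adjusted p = 0.272). Called receptors numbered 3 of 6 for CCND1, 0 for CDK4 by limma, 4 for CDK6 and 3 for the dual knockdown, beside 31.0%, 16.0%, 41.9% and 44.0% of all genes.

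For transport and breakdown, 4 of 7 tested genes changed in irradiated controls (3 higher, 1 lower, median 0.07), beside 68.6% of all genes. SLCO2A1, the prostaglandin uptake transporter, read 17.5, 7.45 and 15.1 in proliferating cells and 61.6 to 102.8 in controls, and rose by 2.57 (SE 0.24, adjusted p = 3.36e-09). It fell by 0.80 in the CDK6 knockdown (adjusted p = 0.00997) and by 0.74 in the dual knockdown (adjusted p = 0.0153). Neither call held against NT4 alone (-0.56 and -0.50, adjusted p = 0.132 and 0.159). In the CCND1 knockdown SLCO2A1 passed the test against NT3 alone (-0.84, limma adjusted p = 0.0204) but not against NT4 alone (-0.36, adjusted p = 0.396). In the CDK4 knockdown it passed against neither NT3 (-0.34, adjusted p = 0.382) nor NT4 (0.13, adjusted p = 0.831). ABCC4, an exporter of prostanoids and cyclic nucleotides, rose in the 4 knockdowns by 0.47 (CCND1), 0.39 (CDK4), 0.52 (CDK6) and 0.61 (dual), with adjusted p of 0.00461 or less. ABCC4 also differed between the controls (NT4 above NT3 by 0.50, adjusted p = 0.00121), and against NT4 alone it passed the test in the dual knockdown (0.36, adjusted p = 0.0102) but not in the other 3 (0.22, 0.14 and 0.27, adjusted p = 0.15, 0.453 and 0.0547).

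**Figure D5:**
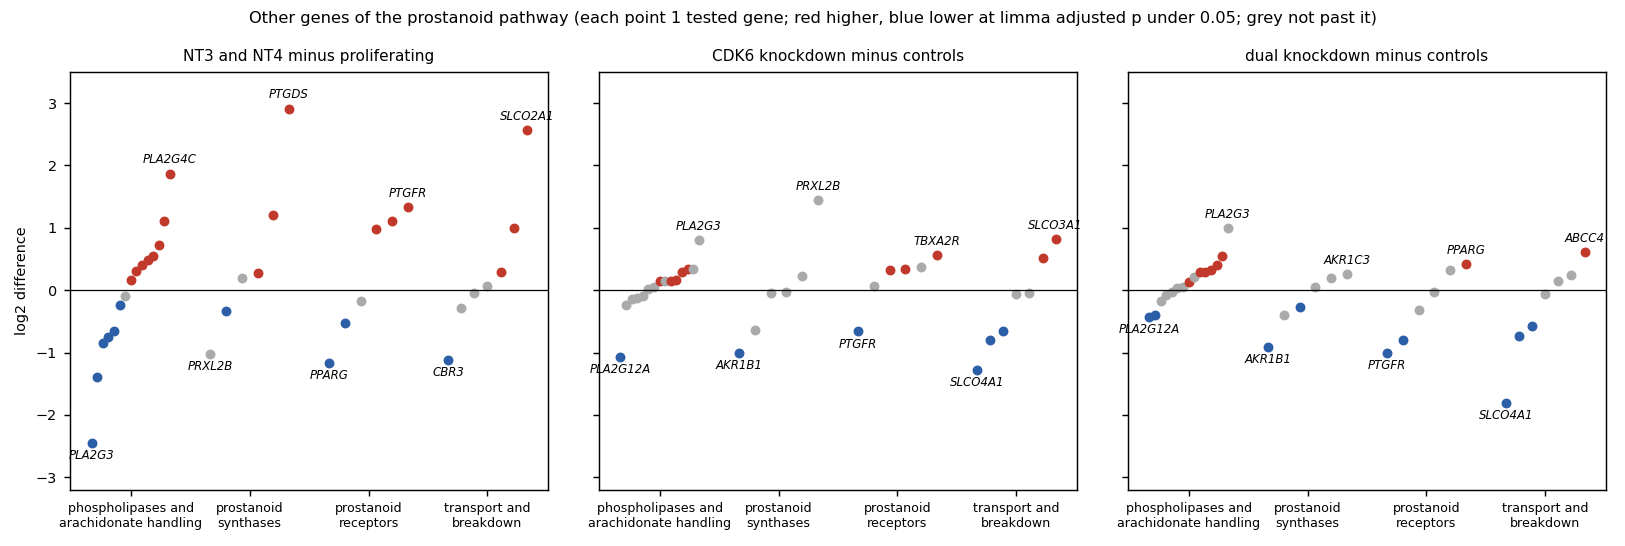
Log2 difference (y axis) of the tested genes of 4 pathway lists (x axis; each point is 1 gene, the lowest and highest of each list named) in irradiated controls against proliferating cells and in the CDK6 and dual knockdowns against controls. Red and blue points are higher and lower at a limma adjusted p under 0.05; SLCO2A1 is at 2.57 on the left and AKR1B1 at -1.01 and -0.91 in the knockdown panels.

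In the GENCODE v44 annotation of GRCh38, PTGS2 spans chr1:186671791-186680922 on the minus strand and PLA2G4A, on the plus strand of the same chromosome, spans chr1:186828949-186988981. PTGS1 spans chr9:122370530-122395703 (plus), PTGES chr9:129738331-129753042 (minus) and PTGIS chr20:49503874-49568137 (minus). Of the exonic bases of PTGS2, 219 are shared with PACERR on the other strand, and reads of the 2 genes there cannot be told apart unless counting used strand, which is not given in the sources used here. No other member except HPGD (314 bases) shares exonic bases with another gene.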

How the data were processed

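RNA was measured in 21 libraries, 3 in each of 7 groups. Per the submitters' processing notes, the tools were Trimmomatic 0.38.1, HISAT2 2.2.1, featureCounts 2.0.3 and DESeq2 2.11.40.8, with builds hg38 and GRCh38. The annotation and strand setting are not given in the sources used here. The signal deposited by the authors is a read count divided by 1 size factor per library: 100% of values gave whole reads within 0.1. Depth was 12892442 to 21822152 reads in listed genes. The floor given for HPGD covers counting error only. The intervals of log2 differences come from limma and rest on the spread between libraries. The column names give the group but no replicate number.

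Values were taken to log2 after adding 1 as pseudocount. The model was limma 3.58.1 (R 4.3.3) with a trended empirical Bayes variance over all 7 groups (14 residual degrees of freedom). Genes with a value of 10 or more in 3 or more libraries were tested, two-sided, with Benjamini-Hochberg adjustment over 11579 genes within each of 8 comparisons and a threshold of 0.05. Differences on this scale understate changes of low genes. The scripts were tested on simulated data. Alternatives were edgeR 4.0.16 (recovered reads, quasi-likelihood) and DESeq2 1.42.0, other pseudocounts, filters and scalings, single controls, leaving out each library, and, added after seeing the data, a block over runs of library numbers. From each pathway list at most 4 genes a comparison were named, those past the threshold with the largest difference and no overlap. ABCC4, AKR1B1, PTGFR and SLCO2A1 were then followed through the 4 knockdowns, and were chosen after their values were seen. Sequences came from RefSeq (GRCh38.p14), loci from GENCODE v44. The members and lists were chosen with earlier results of these data known.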

Additional observations from a re-analysis of the deposited data

How the results depend on the processing

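Of 1352 recomputed values of single members, 1248 kept their direction and their side of the threshold, 66 lost and 13 gained the threshold in the same direction, and 25 changed sign, 2 of them from a called value and none to one. The called values that turned were against NT4 alone: PTGS2 in the CDK4 knockdown at 0.049 and PTGER2 in the dual knockdown at -0.0079. In the CDK4 knockdown against NT4 alone PTGES was 0.076, PTGIS -0.14 and PTGER2 -0.077, and PTGIS was -0.0020 with DESeq2. In the CDK6 knockdown against NT3 alone PTGES2 was -0.020. With 1 library left out, ranges that crossed 0 were, between NT4 and NT3, PTGES2 -0.13 to 0.025, PTGES3 -0.031 to 0.12 and PTGER4 -0.042 to 0.31. In the CDK4 knockdown they were PTGES -0.15 to 0.069 and PTGIS -0.13 to 0.18, and in the CDK6 knockdown PTGES2 -0.039 to 0.056. Between dual and CDK6 knockdown they were PTGER2 -0.15 to 0.086 and PTGER4 -0.053 to 0.11.

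The number of members called moved by over 1.5 times as follows. In the CCND1 knockdown it was 3 of 7 tested with a mean of 100 or more, where fewer genes were tested. In the CDK4 knockdown it was 1 without the filter, 0 against NT4 alone and 1 to 3 with 1 library left out. In the dual knockdown it was 4 with the compared groups alone, where fewer samples give the spread, and 4 to 9 with 1 library left out. With 1 library left out the other counts were 7 to 9 for irradiated controls against proliferating cells, 3 to 4 for NT4 against NT3, 5 to 6 for CCND1, 4 to 6 for CDK6, 4 to 5 for CDK6 against CDK4 knockdown and 3 to 4 for dual against CDK6 knockdown. For all genes, the compared groups alone gave 976 calls in place of 3216 (NT4 against NT3), 2285 in place of 3594 (CCND1), 798 in place of 1854 (CDK4) and 2479 in place of 1504 (dual against CDK6). The CCND1 count was 2235 against NT4 alone and the CDK4 count 2962 against NT3 alone. The CDK4 count was 1176 and 1062 without CDK4 knockdown replicates 1 and 2, and the dual against CDK6 count 937 without CDK6 knockdown replicate 3. The cause was not tested where none is named.

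Median centring moved the median of irradiated controls against proliferating cells by 0.11 and the share of higher calls from 47.4% to 57.9%. The column names carry no replicate numbers, but their library numbers form 3 runs of 6 with 1 library of each irradiated group. A replicate block over these runs, chosen after seeing the data, left the called members at 3 (NT4 against NT3), 5, 2, 6 and 8 (the CCND1, CDK4, CDK6 and dual knockdowns), 5 and 4 (between knockdowns), and gave 3307, 3662, 1929, 4933, 5136, 4095 and 1577 calls over all genes. Deviations from the group means correlated at -0.11 to 0.10 (median 0.037) in the 45 pairs of a run. In 30 pairs the value was highest within the run, each being set against 2 libraries of other runs. These values are low but do not show that libraries of a run are unrelated. The main fit left the runs out. The comparison with proliferating cells was not blocked, since their libraries lie outside the runs. PTGIS rests on 28 to 122 reads a library, which limits small differences.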

Other observations

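Genes tied to cAMP, the second messenger raised by the EP2 and EP4 receptors, were read from a list of 21, of which 20 were tested. The list mixes genes that respond to cAMP with parts of its machinery, such as the adenylyl cyclases ADCY3 and ADCY7, the protein kinase A subunits PRKACA and PRKAR1A, and the transcription factor CREB1. In irradiated controls against proliferating cells 12 rose and 5 fell (median 0.51, beside -0.03 for all genes), where 68.6% of all genes were called. AREG, the growth factor amphiregulin, rose by 3.68 (SE 0.13, limma adjusted p = 6.87e-16), from 19.1 to 259 normalised counts, and ATF3, a stress-induced transcription factor, rose by 2.78 (SE 0.12, adjusted p = 1.55e-14), from 156 to 1092. In the knockdowns 11 fell and 1 rose for CCND1 (median -0.34), 2 fell and 2 rose for CDK4 (-0.01), 11 fell and 5 rose for CDK6 (-0.39), and 13 fell and 2 rose for the dual knockdown (-0.51), where 31.0%, 16.0%, 41.9% and 44.0% of all genes were called. PRKAR1A was the gene that rose for CCND1, AREG and PRKACA rose for CDK4, PDE4A, PDE10A, PRKAR1A, ADCY7 and AKAP12 for CDK6, and PRKACA and PRKAR1A for the dual knockdown. ATF3 read 425, 486 and 345 in the CDK6 knockdown and 317, 432 and 275 in the dual knockdown, all below the lowest control at 804, and fell by 1.37 (adjusted p = 1.63e-08) and 1.68 (adjusted p = 4.75e-10). AREG rose in the CDK4 knockdown (0.59, adjusted p = 0.00389, and 0.41, adjusted p = 0.0567, against NT3 alone) and fell in the CDK6 knockdown (-1.41, adjusted p = 3.63e-08), and its means of 98.03 in the CDK6 and 385 in the CDK4 knockdown differed (SE of the log2 difference 0.15, adjusted p = 2.18e-09). Many genes of this list also respond to other stimuli, and the NT4 and NT3 controls differed in 6 of the 20, ATF3 among them (NT4 lower by 0.47, adjusted p = 0.0181), beside 27.8% of all genes.

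Of 18 listed genes of lipoxygenases, leukotriene handling and epoxide metabolism 8 passed the filter, and ALOX5, the enzyme that starts leukotriene synthesis, was listed at 0 in all 21 libraries. Of the 8, 5 rose in irradiated controls against proliferating cells and none fell by limma, beside 68.6% of all genes called. EPHX1, a microsomal epoxide hydrolase, rose by 0.95 (adjusted p = 9.5e-10) and rose further in the CDK6 (0.40, adjusted p = 0.000448) and dual (0.33, adjusted p = 0.00227) knockdowns. ALOXE3 and LTB4R, which rose by 3.78 and 1.09, fell by 1.55 and 0.66 in the CDK6 knockdown (adjusted p = 0.0244 and 0.0305). In the dual knockdown they fell by 2.42 and 0.85 (adjusted p = 0.000947 and 0.00611). The ALOXE3 differences rest on few reads. Its mean was 0.886 normalised counts in proliferating cells, 21.4 in controls, 6.48 in the CDK6 knockdown and 4.58 in the dual knockdown. For CDK6, ALOXE3 lost its call against NT4 alone and LTB4R against NT3 alone. Of the 8 genes 2 rose and 2 fell for CDK6, beside 41.9% of all genes called. For the dual knockdown 3 rose and 2 fell, beside 44.0%.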
